A study of Mus musculus with 2 samples.

Results

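The genes described here are those of the interferon response and of antigen presentation by MHC class I. They were taken from the deposited expression table by gene symbol, using 1 fixed pattern of family names (IFIT, IFITM, IRF, OAS, GBP, IRGM, ISG, H2-D, H2-K, H2-M, H2-Q, H2-T and TAP families with single genes such as Stat3, Bst2, Rtp4, B2m and Nlrc5). The pattern found 85 of 15953 genes, of which 60 were interferon genes and 25 antigen presentation genes. Of these genes, 7 are matches by name with other functions: Irf2bp1, Irf2bp2, Irf2bpl, Isg20l2, H2-Ke6, and the class II chaperone chains H2-DMa and H2-DMb1. They stay in the counts, medians and figures of both arms below unless said to be left out, and form a role of their own.

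Reads per gene were counted in total RNA of mouse neural stem cells in suspension culture, with 1 library from cells of genotype Wild_Type and 1 from cells of genotype Hikeshi_cKO. Hikeshi is a carrier protein that takes HSP70 chaperones into the nucleus, and cKO is the usual abbreviation of conditional knockout. The strain, the age, the driver of the deletion and any agent given to the cells do not appear in the labels. With no replicates, no test between genotypes was possible, so every comparison below sets the cKO-labelled library against the wild-type-labelled library. The interferon response begins when cells sense foreign or misplaced nucleic acid or bind interferon. Transcription factors of the STAT and IRF families then enter the nucleus and switch on genes through the interferon-stimulated response element (ISRE). MHC class I molecules carry peptides from inside the cell to its surface for T cells to inspect, and neural progenitors are known for low class I levels that interferon raises.

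The libraries held 18912683 reads (cKO) and 18839079 reads (wild type). Levels are in CPM, reads per 1000000 reads counted, and the 12618 genes at 1 CPM or more in either library were kept. Ratios are CPM in the cKO-labelled library over CPM in the wild-type-labelled library, with a 95% interval that covers counting error only. Hikeshi itself, the targeted gene, had 640 reads against 718, a level that does not by itself settle the genotypes. The stem cell markers were present (all 12 of the list kept, 1 at least 1.5-fold higher and 5 lower, 8477 against 7784 CPM in sum), while lymphocyte markers summed to 2 reads against 1 and of 15 microglia markers 1, Cd68, was kept with 91 reads against 56. Endothelial markers summed to 8.41 against 9.29 CPM and pericyte and fibroblast markers to 10.7 against 11.5 CPM. The libraries also differed in 4 Y-linked genes with 2931 reads against 1 in total, in astrocyte markers (8 of 8 at least 1.5-fold lower, summed levels of 1363 against 3208 CPM) and in oligodendrocyte lineage markers (8 of 9 lower, 323 against 1209 CPM, none at 0 in either library). The Y-linked difference and the genotype cannot be told apart. The part of the marker differences in the values below was not tested, and fewer cells of a type cannot be told apart from less RNA per cell.

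Most interferon and MHC class I genes had similar levels in both libraries: 48 of the 55 that were kept lay within 1.5-fold. Of the 85 genes, these 55 were 37 interferon and 18 antigen presentation genes, and the other 30 had at most 18 reads in either library. Differences are given as log2 of the ratio after adding 1 CPM to each level, which understates the difference of low genes. All counts of genes 1.5-fold apart use that measure, and 6 further low genes (Ifih1, Ifi35, Gbp6, H2-DMa, H2-T-ps and H2-T10) pass 1.5-fold in the plain ratio of CPM but not in it. By that measure 1 kept interferon gene was at least 1.5-fold higher, the membrane protein gene Ifitm3, and 4 were at least 1.5-fold lower, namely Gbp5, Irf8, Ifit3b and Rtp4. Among antigen presentation genes 0 were higher and 2 were lower, H2-T23 and H2-Q10. Over all 12618 kept genes, 4.216% were higher and 10.22% lower by 1.5-fold or more (14.44% either way), so the counts among the interferon and class I genes lay near the share in the whole table. At 2-fold, 0 were higher and 1, Gbp5, was lower, against 1.252% and 3.852% of all kept genes. The 6 lower genes at 1.5-fold all had a mean of at most 3.53 CPM. Of 26 kept interferon and class I genes with a mean under 10 CPM these 6 make 23.1%, against 23.97% of all kept genes in that range, and 0 were higher, against 6.761%. Of the 29 at 10 CPM or more, 0 were lower and 1 was higher, against 6.122% and 3.457% of all such genes. The filter kept 6 interferon genes through the wild-type-labelled library alone: Gbp5, Irf8, Ifit3b, Ifi35, Ifih1 and Ifi27l2a. Such genes lie below 0 by construction. Of antigen presentation genes 2 were kept through 1 library alone, H2-T-ps under the wild-type label and H2-T10 under the cKO label.

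**Figure D1:**
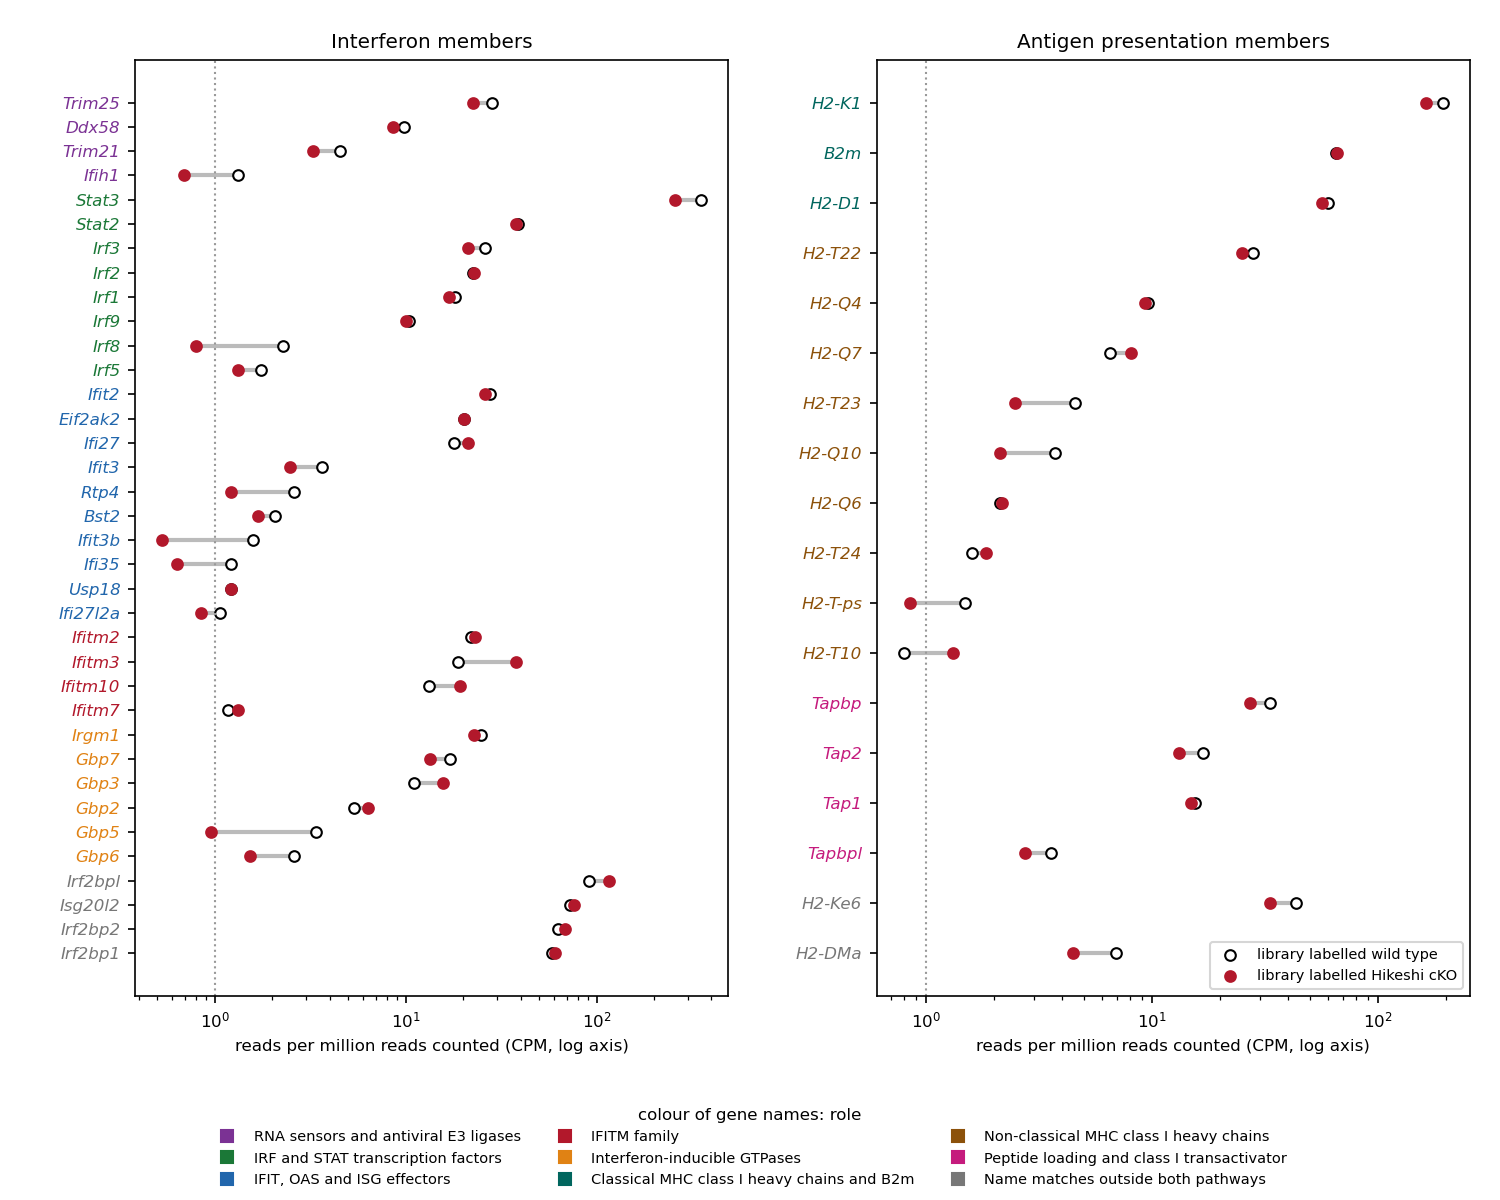
Level of each kept gene in CPM on a log axis, with open circles for the wild-type-labelled library, red circles for the library labelled Hikeshi cKO and gene names coloured by role (1 kept transcription factor is not drawn). The dotted line marks the 1 CPM filter, and the red circle of Ifitm3 lies to the right of the open one, at 37.8 against 18.7 CPM.

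The median difference was -0.13 for the kept interferon genes and -0.20 for the kept antigen presentation genes, beside -0.02 for all kept genes. Differences below 0 were found for 24 of 37 interferon and 13 of 18 antigen presentation genes, against 52.16% of all kept genes. The 24 include the 6 interferon genes kept through the wild-type-labelled library alone. Without the matches by name the medians were -0.17 for 33 interferon genes and -0.11 for 16 antigen presentation genes. The order of both arms thus turned with those 6 kept genes.

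Summed levels depended on the scale and on single genes. The interferon genes without the matches by name summed to 659 CPM in the cKO-labelled library against 763 CPM under the wild-type label. Stat3 supplied 97.8 of the 104 CPM between them, and without it the sums were 402 and 409 CPM. In the deposited TPM, which divide by gene length, the same genes summed to 650 against 598, the opposite direction. Ifitm3, a short gene, made 27.7% and 15.2% of those TPM sums, which were 470 and 508 without it. The antigen presentation genes without the matches by name were lower on both scales, at 398 against 449 CPM and 561 against 618 TPM.

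Per length, the most abundant gene of the 85 in both libraries was H2-K1, with 195 TPM in the cKO-labelled library against 233 TPM under the wild-type label. B2m was the second in both, with 194 and 195 TPM. Ifitm3 was number 3 under the cKO label with 180 TPM and number 6 under the wild-type label with 90.8 TPM. Many classical interferon-stimulated genes, in contrast, had few reads in either library. Isg15, the ubiquitin-like modifier, had 13 reads against 14, and Ifit1, an inhibitor of the translation of foreign RNA, had 6 against 9. The OAS family, which makes a second messenger on sensing double-stranded RNA, had 5 listed genes, and the highest of them, Oasl2, had 16 reads against 18. Irf7, the amplifier of the interferon response, had 13 reads against 12.

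Sensors and antiviral ubiquitin ligases come first in the pathway. The RIG-I gene Ddx58, a sensor of viral RNA, had 162 reads in the cKO-labelled library against 184 under the wild-type label (8.57 against 9.77 CPM, ratio 0.877, 0.706 to 1.09). Ifih1, which encodes the RNA sensor MDA5, had 13 reads against 25 (0.687 against 1.33 CPM, ratio 0.518, 0.243 to 1.05). Both intervals held 1, so at this depth no difference was detectable. Trim25, the ligase that acts on RIG-I, had 425 reads against 534, a ratio of 0.793 whose interval of 0.696 to 0.902 lay below 1. Trim21, an intracellular antibody receptor, had 62 reads against 85 (0.727, 0.515 to 1.02). All 4 kept genes of this role lay below 0, against 52.16% of all kept genes. Their median was -0.34 and none was at least 1.5-fold apart. Dhx58, a regulator of both RNA sensors, went the other way with 13 reads against 3, but stayed under the filter in both libraries.

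The transcription factors were expressed at moderate levels. Stat3, which mainly serves the cytokines of the interleukin-6 family, had the most reads of them with 4849 against 6673 (256 against 354 CPM, ratio 0.724, 0.697 to 0.751). Stat2 and Irf9, which act together at the ISRE, lay close to equal. Stat2 had 712 reads against 730 (37.6 against 38.7 CPM, ratio 0.972, 0.875 to 1.08) and Irf9 had 190 against 195 (10.05 against 10.35 CPM, ratio 0.971, 0.791 to 1.19). Both intervals held 1. Irf3, which is activated directly by sensors, had 402 reads against 492 (21.3 against 26.1 CPM, ratio 0.814, 0.712 to 0.930). Irf1 had 319 against 340 (16.87 against 18.05 CPM, ratio 0.935, 0.800 to 1.09) and its antagonist Irf2 had 429 against 426 (1.003, 0.875 to 1.15).

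Irf8, a factor of myeloid cells, was the transcription factor furthest apart, with 15 reads against 43 (0.793 against 2.28 CPM, ratio 0.347, 0.179 to 0.638). Of the 6 microglia and macrophage markers in the table, Csf1r and Cx3cr1 had 0 reads against 1 each, Itgam and Tmem119 had 1 against 0 each, and P2ry12 had 4 against 5. The other marker, Cd68, had 91 reads against 56 (1.62, 1.15 to 2.30), higher where Irf8 was lower. The part of myeloid cells in the value of Irf8 was not tested. Irf5 had 25 reads against 33 (0.755, 0.430 to 1.31), while Irf4, a factor of lymphoid cells, had 6 against 1. Of the 9 kept transcription factors 8 lay below 0, against 52.16% of all kept genes, and the exception was Irf2 at 0.00. The median was -0.25. The 1 factor at least 1.5-fold lower, Irf8, had a mean under 10 CPM, a range in which 23.97% of kept genes were lower.

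Effectors were mostly low and similar in both libraries. Ifit2, which binds RNA, had 494 reads against 523 (26.1 against 27.8 CPM, ratio 0.941, 0.830 to 1.07). Eif2ak2, the kinase PKR that halts translation on sensing double-stranded RNA, had 384 against 381 (20.3 against 20.2 CPM, ratio 1.004, 0.869 to 1.16). Usp18, which removes ISG15 and dampens interferon signalling, had 23 reads in each library. For these 3 genes no difference was detectable at this depth. Bst2, which tethers budding virus to the cell, had 32 reads against 39 (1.69 against 2.07 CPM, ratio 0.817, 0.496 to 1.34). Rtp4, an interferon-induced antiviral gene, had 23 reads against 49 (1.22 against 2.60 CPM, ratio 0.468, 0.272 to 0.782) and was at least 1.5-fold lower.

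Ifit3 and Ifit3b are near-identical neighbours on chromosome 19, and their deposited counts are not whole numbers, so reads may have been divided between them. Ifit3 had 47 rounded reads against 69 and Ifit3b had 10 against 30 (2.49 against 3.66 CPM and 0.529 against 1.59 CPM). Their sum of 57 against 99 gave a ratio of 0.574 (0.407 to 0.802), less far apart than Ifit3b alone at 0.332. Ifit3b also lies inside the annotated span of Ifit1bl1. Ifi27 was the effector with an interval above 1, at 400 reads against 337 (1.18, 1.02 to 1.37). It lies within the span of Ifi27l2a (16 reads against 20), and with no strand setting known these genes may not be separable. Of 10 kept effectors 8 lay below 0, against 52.16% of all kept genes, with a median of -0.17. The 2 at least 1.5-fold lower, Ifit3b and Rtp4, each had a mean under 10 CPM, a range in which 23.97% of kept genes were lower.

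Of 4 kept genes of the IFITM family 1 was at least 1.5-fold higher and 0 were lower, against 4.216% and 10.22% of all kept genes. The family encodes small membrane proteins, some of which block the fusion of viruses with the cell, and Ifitm3 is its best known antiviral gene. Ifitm3, at chr7:141009590-141010744 of GRCm38.p6, had 715 reads against 353. The levels were 37.8 and 18.7 CPM, a ratio of 2.02 (1.77 to 2.30), and the deposited TPM were 180 and 90.8. Its neighbour Ifitm2, which ends 49.9 kb before it, had 435 reads against 412 (deposited TPM of 99.8 against 91.7, ratio 1.05, 0.917 to 1.21). As similar genes they may share reads, and their sum of 1150 against 765 gave a ratio of 1.497 (1.37 to 1.64). Ifitm10, a distant relative on the same chromosome, had 363 reads against 251 (1.44, 1.22 to 1.70), and Ifitm7 on chromosome 16 had 25 against 22 (1.13, 0.613 to 2.11). All 4 kept genes lay above 0, with a median of 0.30, while 52.16% of all kept genes lay below 0. The intervals of Ifitm2 and Ifitm7 held 1, however, and Ifitm7 lay at -0.02 in the deposited TPM. The genes Ifitm5 and Ifitm6 had 1 read against 0 and 0 against 1. Hikeshi lies on the same chromosome as Ifitm3, and its end is 51.01 Mb from the start of Ifitm2. The kept interferon genes outside the family on this chromosome, Irf3, Trim21 and the match by name Irf2bp1, had ratios of 0.814, 0.727 and 1.03. The part of this shared chromosome in the value of Ifitm3 was not tested.

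The guanylate-binding proteins, large GTPases induced mainly by interferon gamma, were split among neighbours. On chromosome 3 the genes Gbp5, Gbp7, Gbp3, Gbp2b and Gbp2 lie in this order within 141 kb. Gbp5, at chr3:142496934-142522344 of GRCm38.p6, promotes inflammasome activity. It had 18 reads against 64, or 0.952 against 3.40 CPM. Its ratio of 0.280 (0.156 to 0.479) was the lowest of all kept genes of both arms. Gbp7, the next gene, had 253 reads against 322 (0.783, 0.661 to 0.926). Gbp3, which starts 37.7 kb beyond the end of Gbp5, had 298 against 209 (1.42, 1.19 to 1.70), and Gbp2 had 120 against 101 (6.34 against 5.36 CPM, ratio 1.18, 0.901 to 1.56). Within 1 cluster, then, 2 genes had intervals below 1, 1 had an interval above 1, and the summed reads of the cluster were 691 against 697 (0.988, 0.888 to 1.099).

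The cluster on chromosome 5 was expressed less. Gbp6 had 29 rounded reads against 49 (0.590, 0.359 to 0.952), and its reads may be shared with Gbp10, which had 1 in each library. Their sum had a ratio of 0.598 (0.367 to 0.958). Irgm1, an immunity-related GTPase of autophagy, had 429 reads against 470 (22.7 against 24.9 CPM, ratio 0.909, 0.796 to 1.04), and Irgm2 had 7 against 6. Of the 6 kept GTPases 2 lay above 0 and 4 below, while 52.16% of all kept genes lay below 0. The median of these GTPases was -0.23.

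Promoters of these genes were read for the ISRE, since it is the element through which the pathway acts. RefSeq promoters of GRCm38.p6 were found for 48 interferon and 18 antigen presentation genes, and the 250 bases before each start were searched on both strands for GAAA, any 2 bases and GAAA again. The letters were present for 19 of the 48 interferon genes (39.6%) and 3 of the 18 antigen presentation genes (16.7%), against 3.46% of 27025 genes with a promoter. All 7 GTPase genes with a promoter held it. The gamma-activated site (TTC, any 3 bases and GAA), whose letters can overlap the ISRE, was found in 27.1% of the interferon and 5.56% of the antigen presentation promoters, against 8.13% of all. The stretches below show 1 match each in capitals for the 4 kept genes of the chromosome 3 cluster, whose neighbours differed in opposite directions, and for 3 class I genes with unequal differences. Each is printed 5′ to 3′ along the strand of its gene and ends before the first annotated base of the gene. Where the capitals begin with TTTC the element is on the opposite strand. The Gbp3 stretch holds another match that overlaps the capitals and runs on into the lower case, and Gbp2b, which was not kept, also has a match that is not shown.
Gbp5 (chr3:142496744-142496803, plus strand): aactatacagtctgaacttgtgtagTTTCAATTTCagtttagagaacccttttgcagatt
Gbp7 (chr3:142530258-142530317, plus strand): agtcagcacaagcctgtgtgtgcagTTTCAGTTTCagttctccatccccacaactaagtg
Gbp3 (chr3:142559974-142560015, plus strand): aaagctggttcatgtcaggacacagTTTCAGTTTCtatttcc
Gbp2 (chr3:142620579-142620638, plus strand): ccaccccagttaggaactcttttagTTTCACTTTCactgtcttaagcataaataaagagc
B2m (chr2:122147523-122147582, plus strand): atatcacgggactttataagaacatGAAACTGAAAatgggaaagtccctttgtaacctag
H2-T22 (chr17:36042899-36042958, minus strand): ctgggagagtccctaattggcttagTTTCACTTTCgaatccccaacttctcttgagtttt
H2-T23 (chr17:36032791-36032850, minus strand): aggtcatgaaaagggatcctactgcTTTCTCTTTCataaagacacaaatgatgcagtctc

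The 11 kept interferon genes with the letters had a median of -0.13, with 0 at least 1.5-fold higher and 2 lower, and ranged from -1.17 (Gbp5) to 0.47 (Gbp3). The 20 without them had a median of -0.09, with 1 higher (Ifitm3) and 1 lower (Irf8). These 20 include the matches by name Irf2bp1, Irf2bp2, Irf2bpl and Isg20l2, at 0.04, 0.12, 0.35 and 0.07. The 11 with the letters include no match by name, so these medians do not compare like sets. The 3 antigen presentation genes with the letters, B2m, H2-T22 and H2-T23, had differences of 0.00, -0.15 and -0.68. Among the 267 other kept genes with the letters, 4.87% were at least 1.5-fold higher and 8.99% lower. A match in this window is a description of letters, not evidence of a bound site.

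**Figure D2:**
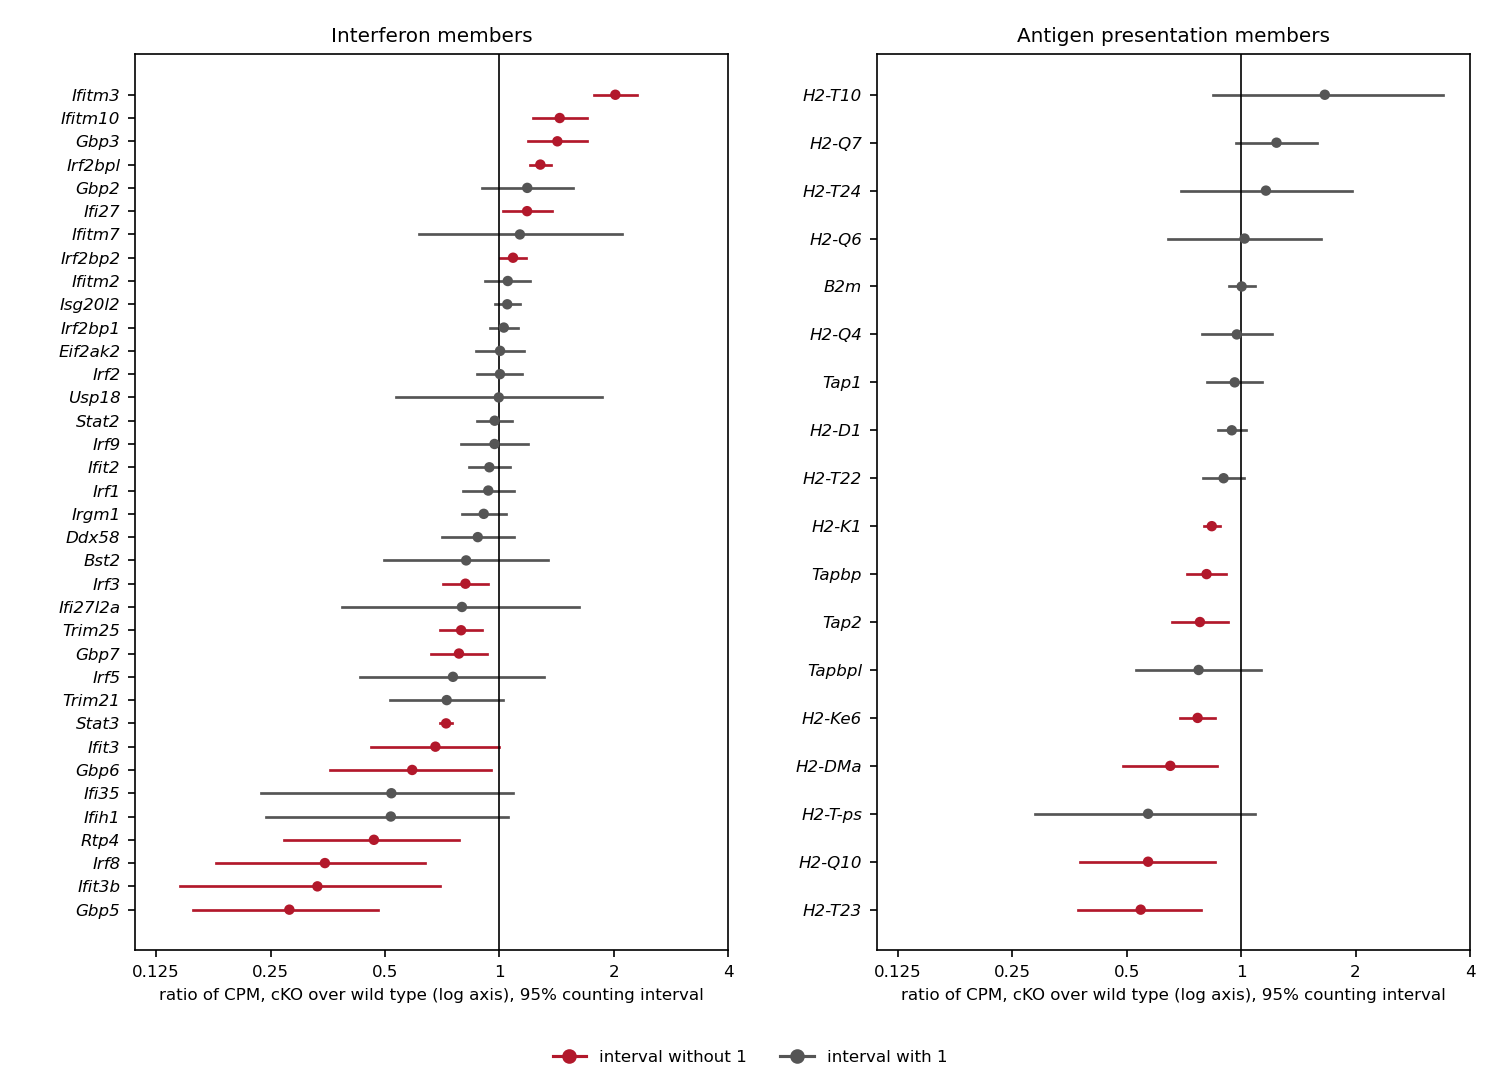
Ratio of CPM, cKO over wild type, of each kept gene on a log axis, with bars for the 95% counting interval, interferon genes on the left and antigen presentation genes on the right. Red marks intervals that leave out 1, which lie on both sides for interferon genes (6 above and 11 below, 1 of the latter not drawn) and on the lower side for antigen presentation genes (0 above and 7 below).

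Counting error was exceeded on both sides by single interferon genes and on 1 side by single antigen presentation genes. Intervals lay wholly above 1 for 6 interferon genes, of which Irf2bpl and Irf2bp2 are matches by name, and wholly below 1 for 11. For antigen presentation genes 0 lay above and 7 below, of which H2-Ke6 and H2-DMa are matches by name. The sum of the copies H2-Q6, H2-Q7 and H2-Q9 had an interval above 1 (1.002 to 1.52). Over all kept genes 28.06% had an interval above 1 and 31.15% below. Such an interval compares the libraries and not the genotypes.

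The matches by name ranged from a few reads to some of the highest totals of the 85 genes. H2-DMb1 had 1 read against 3, and H2-DMa had 85 rounded reads against 130 (0.651, 0.490 to 0.863). Irf2bpl, a nuclear protein gene, had 2207 reads against 1716 (117 against 91.1 CPM, ratio 1.28, 1.20 to 1.37). Irf2bp2 and Irf2bp1 encode partners of IRF2 that repress transcription. Irf2bp2 had 1296 reads against 1189 (68.5 against 63.1 CPM, ratio 1.09, 1.003 to 1.18) and Irf2bp1 had 1140 reads against 1106 (60.3 against 58.7 CPM, ratio 1.03, 0.944 to 1.12). Isg20l2, which encodes a nuclease of ribosome assembly, had 1444 reads against 1372 (76.4 against 72.8 CPM, ratio 1.05, 0.973 to 1.13). H2-Ke6, which encodes a steroid dehydrogenase despite its name, had 631 reads against 818 (33.4 against 43.4 CPM, ratio 0.768, 0.692 to 0.854). Of the 6 kept matches by name 4 lay above 0 and 2 below, while 52.16% of all kept genes lay below 0. Of these matches 0 were at least 1.5-fold apart.

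Class I molecules themselves were close to equal. B2m, at chr2:122147687-122153082 of GRCm38.p6, encodes the invariant light chain of class I molecules. It had 1243 reads in the cKO-labelled library against 1234 under the wild-type label (65.7 and 65.5 CPM, ratio 1.003, 0.927 to 1.09). The classical heavy chain H2-D1 had 1074 reads against 1132 (56.8 against 60.1 CPM, ratio 0.945, 0.869 to 1.03). The other classical heavy chain, H2-K1 at chr17:33996012-34000619, had 3072 against 3655 (162 against 194 CPM, ratio 0.837, 0.798 to 0.879). Only H2-K1 of these 3 genes had an interval below 1, and none was 1.5-fold apart. The reads of H2-K1 and H2-D1 together had a ratio of 0.863 (0.827 to 0.900).

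Non-classical heavy chains are closely related copies, and 7 of the 14 listed had counts that were not whole in at least 1 library, so their single values are uncertain. H2-T23, which encodes Qa-1, the ligand of inhibitory receptors on natural killer cells, had whole counts of 47 against 86 (2.49 against 4.56 CPM, ratio 0.544, 0.373 to 0.786). H2-Q10, which encodes a secreted class I molecule, had 40 rounded reads against 70 (2.11 against 3.72 CPM, ratio 0.569, 0.376 to 0.851). No other class I gene was 1.5-fold apart on the scale with 1 CPM added. H2-T22, a ligand of gamma delta T cells, had 474 rounded reads against 525 (0.899, 0.793 to 1.02). H2-Q4 had 177 against 181 (0.974, 0.787 to 1.21). The copies H2-Q6, H2-Q7 and H2-Q9, which belong to the Qa-2 group, summed to 208 rounded reads against 168 (1.23, 1.002 to 1.52), on the higher side. Of the 9 kept genes of this role 4 lay above 0 and 5 below, with a median of -0.03, while 52.16% of all kept genes lay below 0. The 9 include H2-T10, which is annotated as a transcribed pseudogene, with 25 reads against 15. They also include H2-T-ps, which is named as a pseudogene but annotated as protein-coding.

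Of the kept peptide loading genes none was 1.5-fold apart. Tap1 and Tap2 form the pump that brings peptides into the endoplasmic reticulum. Tap1 had 282 reads against 292 (14.9 against 15.5 CPM, ratio 0.962, 0.814 to 1.14), while Tap2 had 248 against 317 (13.1 against 16.8 CPM, ratio 0.779, 0.657 to 0.923). Tapbp, which encodes tapasin, the bridge between that pump and class I, had 513 against 630 (27.1 against 33.4 CPM, ratio 0.811, 0.720 to 0.913). Its relative Tapbpl, a peptide editor, had 52 against 67 (0.773, 0.528 to 1.13). All 4 kept genes lay below 0, against 52.16% of all kept genes, with a median of -0.29. The intervals of Tap1 and Tapbpl held 1, however, and Tap1 lay at 0.03 with the trend on GC content removed. Nlrc5, the transactivator of class I genes, stayed under the filter with 4 reads against 11.

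Many antigen presentation genes lie within the MHC region of chromosome 17, which also holds the inducible HSP70 genes Hspa1a and Hspa1b. These 2 genes were together 22.2-fold higher in the cKO-labelled library (19.2 to 25.9). H2-D1 starts 291 kb beyond the end of Hspa1a, and its ratio was 0.945. Between Tapbp and H2-M3, a stretch of 3355 kb, 93 genes were kept. Of these, 3 were at least 1.5-fold higher (Hspa1a, Hspa1b and Clic1) and 6 lower. These counts make 3.23% and 6.45%, against 4.216% and 10.22% of all kept genes. The 77 genes of the region outside both arms had a median of 0.01. Of the 16 kept antigen presentation genes in the region, which include the matches by name H2-Ke6 and H2-DMa, 0 were higher and 2 were lower.

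**Figure D3:**
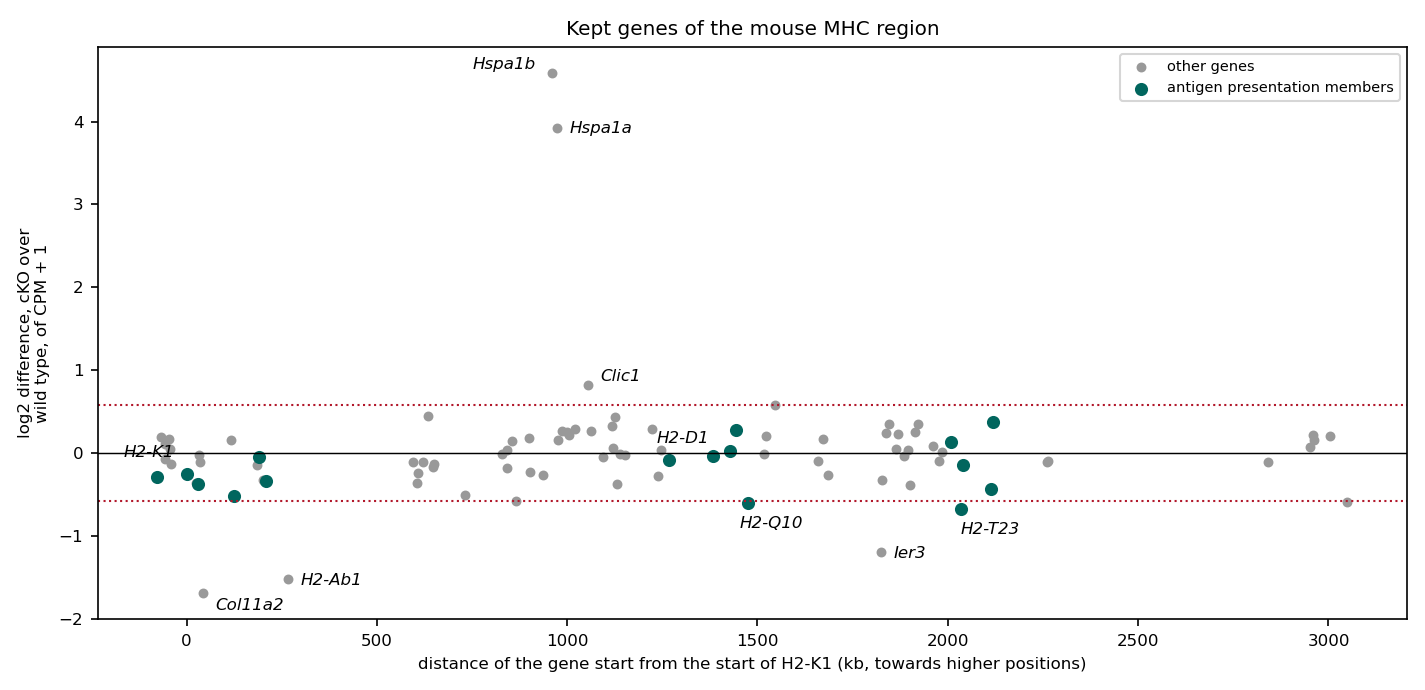
Log2 difference of the 93 kept genes of the MHC region against the distance of the gene start from that of H2-K1 in kb, with antigen presentation genes in green, other genes in grey and dotted lines at 1.5-fold. Hspa1b and Hspa1a stand at 4.59 and 3.92, while the green points lie between -0.68 (H2-T23) and 0.37 (H2-T10, annotated as a transcribed pseudogene).

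The rest of the pathway was read from fixed lists. Interferon receptors were present in both libraries at similar levels: 0 of 5 kept genes of the ligand and receptor list were 1.5-fold apart (median 0.02). Ifnar1 had 1722 reads against 1693, and Ifngr1, a chain of the interferon gamma receptor, had 441 against 527 (0.834, 0.733 to 0.948). Of the 12 genes of interferons in that list none is in the deposited table. Among 13 kept kinases and feedback regulators of JAK and STAT signalling 0 were 1.5-fold apart (median 0.01). The feedback gene Socs3, a target of STAT3, had 271 reads against 332 (0.813, 0.690 to 0.957), and the kinase gene Jak2 had 1699 against 1311 (1.29, 1.20 to 1.39).

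Of 17 kept genes of nucleic acid sensing outside the 85, 2 were at least 1.5-fold higher and 1 was lower, with a median of 0.06, against 4.216% and 10.22% of all kept genes. Cgas, the sensor of cytosolic DNA, had 172 reads against 89 (1.93, 1.48 to 2.52), and Tmem173, which encodes its partner STING, had 166 against 93 (1.78, 1.37 to 2.32). Tlr3, the endosomal receptor of double-stranded RNA, had 62 against 111 (0.556, 0.401 to 0.766). Cgas, Tmem173 and Tlr3 each had a mean under 10 CPM, a range in which 6.761% of kept genes were higher and 23.97% lower. Mavs and Tbk1, which carry signals onwards, had 672 reads against 783 and 526 against 490. Trex1, which degrades cytosolic DNA, had 116 reads against 100 (1.16, 0.877 to 1.53), and the intervals of Tbk1 (0.944 to 1.21) and Trex1 held 1.

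Among 28 kept further interferon-stimulated genes the median was -0.18. At 1.5-fold 0 were higher and 2 lower, against 4.216% and 10.22% of all kept genes. Mndal, 1 of the lower genes, had 6 reads against 26 (0.230, 0.0774 to 0.571). The chemokine gene Cxcl10 was within 1.5-fold on the scale used for counting, at 211 reads against 310 (0.678, 0.566 to 0.810). Immunoproteasome subunits, which favour peptides that fit class I, included Psmb10 with 317 reads against 425 (0.743, 0.640 to 0.861) and Psmb8 with 71 against 93 (0.760, 0.550 to 1.05). None of 6 genes of that list, of which 5 also count among the interferon-stimulated genes above, was 1.5-fold apart (median -0.11). In the list of peptide trimming and endoplasmic reticulum folding 1 of 10 was higher, the aminopeptidase gene Lnpep with 398 against 241 (1.65, 1.40 to 1.94), and 0 were lower (median 0.08).

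MHC class II genes, the counterpart for peptides taken up from outside, were low. H2-Ab1, a class II chain, had 27 reads against 112 (0.240, 0.152 to 0.368), and H2-DMa, which helps to load class II, had 85 rounded reads against 130 (0.651, 0.490 to 0.863). The invariant chain gene Cd74, which class II needs for its transport, had 0 reads against 1, and the transactivator gene Ciita had 23 against 32. Of 3 kept genes of that list 0 were higher and 1 was lower (median -0.52), against 4.216% and 10.22% of all kept genes. Among 8 factors that bind MHC promoters 0 were 1.5-fold apart (median 0.07). Of 13 kept genes of the NF-kB list 0 were higher and 3 lower (median -0.11), against 4.216% and 10.22% of all kept genes. The lower genes were Birc3 with 1 read against 25 (ratio 0.0398, 0.00097 to 0.243), Icam1 with 9 against 39 (0.230, 0.0979 to 0.482) and Tnfaip3 with 104 against 187 (0.554, 0.432 to 0.708). All 3 had a mean under 10 CPM, a range in which 23.97% of all kept genes were lower.

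**Figure D4:**
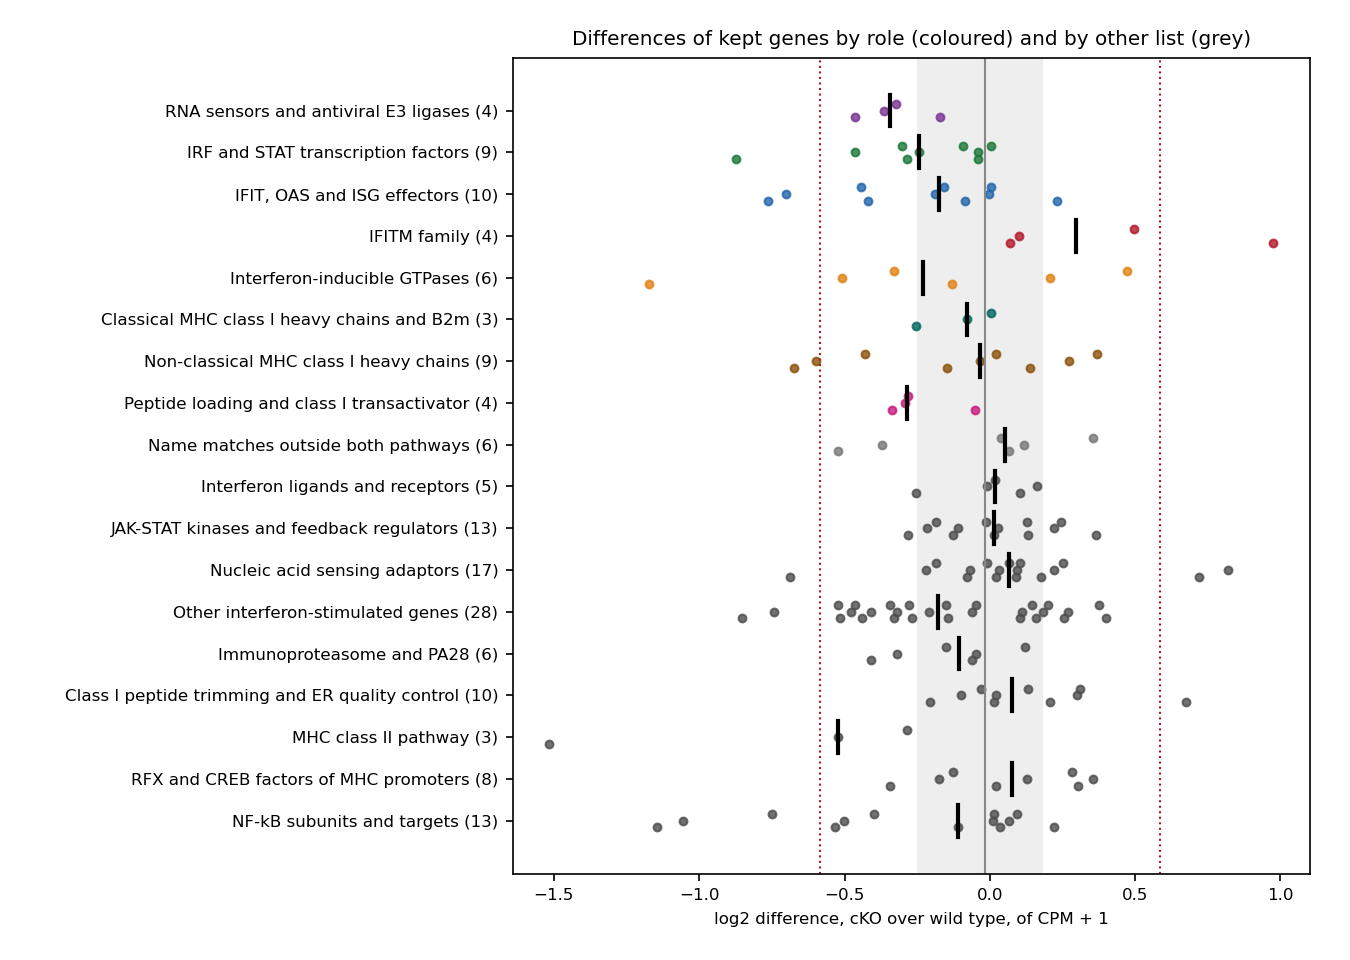
Log2 differences of kept genes by role (coloured) and in the other lists of the pathway (grey), with the number of kept genes in parentheses and black bars for medians. The shaded band and grey line are the middle 50% and the median (-0.02) of all 12618 kept genes, dotted lines mark 1.5-fold, and the IFITM family has the highest median at 0.30.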

How the data were processed

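Total RNA of mouse neural stem cells was sequenced as 1 library per genotype label, with standard Illumina library methods per the labels' protocols. The submitters' processing notes name the build GRCm38.p6. The aligner, the counter, the annotation and the strand setting were not given in the sources used here. What the authors deposited is, for each gene, an estimated count (an expected count, not always whole), TPM, FPKM and a normalized read count (a signal: the count rounded up times a constant per library), named so per the file headers. Of the 85 genes 15 had counts that were not whole.

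Counts were rounded, divided by the column total and kept at 1 CPM in at least 1 library. Differences are log2 of CPM plus 1. Intervals are exact conditional binomial (Clopper-Pearson, scipy 1.17.1) and cover counting error only, since reads with no molecular identifier are not independent molecules. No test was possible. The difference and interval code was tested on simulated data. Alternatives used edgeR 4.0.16 (TMM) and DESeq2 1.42.0 (size factors), the deposited TPM and normalized count, pseudocounts of 0.5 and 5, no filter, a 5 CPM filter, a GC correction, a fold of 2, and the matches by name left out. FPKM values that the authors deposited were not used. All 85 genes matched RefSeq by gene number, and coordinates and promoters are from RefSeq, GRCm38.p6. The coordinates of H2-Q9 there lie outside the MHC region and are not used.

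The genes, lists and tests were chosen with earlier results of these data known. Every gene of the 85 may be named, those not kept by their reads only. Full values are given for genes at least 1.5-fold apart with at least 20 reads in the higher library, for the 5 of highest mean CPM in each arm, and for a fixed set of anchors. Of other lists up to 4 such genes are named, and further ones were chosen after their values were seen. Values of some genes are not reported here, and counts, medians and sums include them.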

Additional observations from a re-analysis of the deposited data

How the results depend on the processing

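Over 9 settings (other scalings, units, pseudocounts, filters and a GC correction), 3 of 471 values of single kept genes moved past a set limit. The limit was a change of more than 0.5 times the log2 width of the gene's counting interval. That interval is of the plain ratio of CPM, while the values have a pseudocount added. A reversal was defined only for the genes at least 1.5-fold apart, namely Ifitm3, Gbp5, Irf8, Ifit3b, Rtp4, H2-T23 and H2-Q10. Of the values of these genes 0 reversed. The counts of lower genes rested on low levels. For interferon genes at least 1.5-fold lower, the 4 became 7 with a pseudocount of 0.5 CPM and 0 with 5 CPM or with a 5 CPM filter (8, 1 and 1 apart in either direction), and 5 with the GC correction, which added Gbp6. For antigen presentation genes the 2 lower, which are also the 2 apart in either direction, became 3 with the deposited TPM, which added H2-DMa, 1 with TMM scaling or the GC correction and 0 with a pseudocount of 5 CPM or a 5 CPM filter. At 2-fold the counts were 0 higher and 1 lower (1 apart) for interferon genes and 0 lower (0 apart) for antigen presentation genes. Over the 9 settings the median of the interferon genes lay between -0.13 and 0.00 and that of the antigen presentation genes between -0.26 and -0.14, and without the matches by name the medians were -0.17 and -0.11. Genes near 0 changed sign in at least 1 of them: Ifitm7, Tap1, Stat2, H2-Q4, Eif2ak2, B2m, Irf2 and Usp18, so counts of genes above or below 0 by role can move by 1 or more. Ifitm3 was at least 1.5-fold higher in every one of the 9 settings. Gbp5, Irf8, Ifit3b, Rtp4 and H2-T23 were at least 1.5-fold lower in all settings that kept them except the pseudocount of 5 CPM, and H2-Q10 was also within 1.5-fold with TMM scaling and the GC correction. A higher pseudocount or filter shrinks or drops low genes by construction. The cause of the other moves was not tested. No paired analysis was possible because each group has 1 library. With 1 library per group, no setting stands for variation between cultures or animals.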
